A study of Bos taurus with 8 samples.

Results

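The 9 genes described here encode cytokines of endometrial inflammation: the interleukin-1 family members IL1A, IL1B, IL1RN, IL18 and IL33, the cytokines IL6, IL10 and TNF, and the chemokine IL8 (current symbol CXCL8). They were chosen by name, not by a rule on their values, from the 16688 gene symbols on the array, though with earlier results of these data known. Every noncontrol probe that the array files label with one of these symbols was taken, 22 probes in all. For 21 of the 22 the accession also belongs to the gene. The exception carries the IL6 symbol with an accession that the RefSeq gene table gives to LOC517016 and a position on chromosome 8, and it is kept apart from IL6 below.

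Interleukin-1 alpha and beta bind the receptor IL1R1 and its partner IL1RAP and act through MYD88 and IRAK kinases on the transcription factor NF-kB, while IL1RN encodes the antagonist that occupies the receptor without signalling. IL-1 beta and IL-18 are cleaved to their active forms by caspase-1 in the inflammasome, and TNF, IL-6 and IL-8 are classical products of NF-kB signalling. IL-10 acts through JAK1, TYK2 and STAT3 to restrain the production of the others, and IL-33 is a nuclear alarmin that signals through IL1RL1 when cells are damaged. In the cow, endometrial IL1A, IL1B, IL6, IL8 and TNF are widely measured as signs of uterine inflammation, and IL-8 draws neutrophils into the tissue.

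The samples are endometrial biopsies of 8 cows, 1 array per animal. The 4 cows of the 0 mM group and the 4 cows of the 5 mM group received 25 mL of fluid in each uterine horn on day 1 after standing estrus (day 0), without or with methylglyoxal (MGO), a reactive dicarbonyl made during glycolysis. On day 7 tissue was taken from the horn next to the ovary that carried the corpus luteum, so the values describe a single time, 1 dose and 1 horn. The labels used here give no breed, age or composition of the fluid. Cy3-labelled RNA was hybridised to one-colour Agilent bovine arrays of 43653 noncontrol probes, of which 68.3% to 73.2% were well above background. In the tissue check, all 15 tested markers of luminal and glandular epithelium and all 11 tested stromal markers were well above background in at least 2 cows of each group. Values are log2 processed signals after subtraction of the log2 75th percentile of each array, which was 1032 to 1456 intensity units. Each difference is the 5 mM mean minus the 0 mM mean, and groups are given as mean ± SD of 4 cows. Levels of different probes are not compared, because a probe's brightness depends on its sequence. In tissue, fewer cells of a type and less RNA per cell cannot be told apart.

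The cytokine readings rest on 60-base probes, and 30 bases of the brightest probe of the genes that the results turn on are shown 5′ to 3′ as the array files give them, to make clear which piece of each transcript was measured. Capitals mark the pentamer ATTTA, the core of the AU-rich elements that shorten the life of many cytokine mRNAs.
IL1A, chr11:48187738-48187797, minus strand: caaagtgccttttccattgtcatgaacttc
IL1B, chr11:48249271-48249330, minus strand: agcatagcATTTAtgaatagggaagaatga
IL1RN, chr11:48543380-48543439, plus strand: tggaaagtgtcctgttctctgtgacttaag
IL6, chr4:32760745-32760804, plus strand: aatggctatgtggcttgaatgtccttattg
IL8, chr6:91793390-91793449, plus strand: aatcctgcttttttgttttcggtttttgta
IL10, chr16:3568292-3568351, minus strand: cctagagtATTTAttacctctgatacctca
IL18, chr15:20673468-20673527, plus strand: tcaaagaagtgttccaggacatgatgataa
TNF, chr23:27531317-27531376, minus strand: ttgtctaaatgatgctgatttggtgactga
Coordinates are those of the whole probe on the HGSC Btau_3.1 build, as the files give them. Without a genome of that build, exon and untranslated-region annotation was not used here. The 3 neighbouring genes IL1A, IL1B and IL1RN share a stretch of chromosome 11. ATTTA was found in 2 of the 22 probes, the IL1B probe and the IL10 probe shown, against 7.45% of all 43653 probes, and on the opposite strand in 3 of the 22 against 8.68%.

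For IL1B the choice of probe matters, which is why a second set of sequences is shown. Its probes 2 and 3 in order of brightness overlap on 53 bases and differ there by the substitution G3C, counted from the first shared base with the base of probe 3 first. Capitals mark that base.
IL1B probe 3, chr11:48250103-48250162: agGtggccaggatataactgacttcagaat
IL1B probe 2, chr11:48250096-48250155: agCtggccaggatataactgacttcagaat
The brightest IL1B probe lies elsewhere in the transcript and shares a run of 15 bases, in capitals in the next 2 lines, with the probe of IL1RL1, the IL-33 receptor gene.
IL1B probe 1: gacTGAAGTGACTTAGCAtagcatagcatt
IL1RL1 probe, chr11:7365939-7365998, plus strand: tggggtcgTGAAGTGACTTAGCAgcagcag
Runs of at least 14 bases, on either strand, link this IL1B probe to 5 probes of other genes or of no named gene and the IL1RL1 probe to 15 others. The median over all probes was 1, and 7.24% of probes had at least 5. Over the 8 arrays the IL1B probe had a Pearson r of 0.66 with the IL1RL1 probe and 0.65 with a SCARA3 probe, which share their runs on the same strand. With the probes that share a run on the opposite strand r was 0.43 (no named gene), -0.16 (TCHHL1) and -0.69 (FAM210B). Whether the shared run affects either signal was not tested.

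Methylglyoxal given on day 1 was not followed on day 7 by a cytokine difference that passed the test. Of the 8 genes that could be tested, 6 had lower mean values in the 5 mM group (IL1A, IL1B, IL1RN, IL10, IL18 and TNF) and 2 had higher ones (IL8 and IL33). The differences ran from -1.60 for IL1A to 0.24 for IL8, with a median of -0.52, while the median over all 31108 tested probes was 0.021 and 46.9% of them were lower. The IL1A value includes a reading in 5 mM replicate 1 that was not well above background. With limma and Benjamini-Hochberg adjustment over all tested probes, 0 of the 8 genes had an adjusted p under 0.05, against 0% of all probes, and the lowest value after adjustment was 0.913. The number at an unadjusted p under 0.05 was 0 of 8, where the share over all probes was 1.91%, and the groups did not separate for any of the 8, where the share over all probes was 1.54%. These zero counts do not show that the groups were alike: the 95% interval of the TNF difference, for example, ran from -1.69 to 0.20.

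Detection differed widely between the 22 probes. Testing required a signal well above background in 4 or more of the 8 cows, and 12 probes met this, 10 of them in all 8 cows. The other 10 were too dim, among them both probes that carry an IL6 accession, and 3 were above background on no array: the second probe of IL1A, the second of IL10 and the IL6-labelled probe of LOC517016. IL8 passed the filter with exactly 4 arrays.

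**Figure D1:**
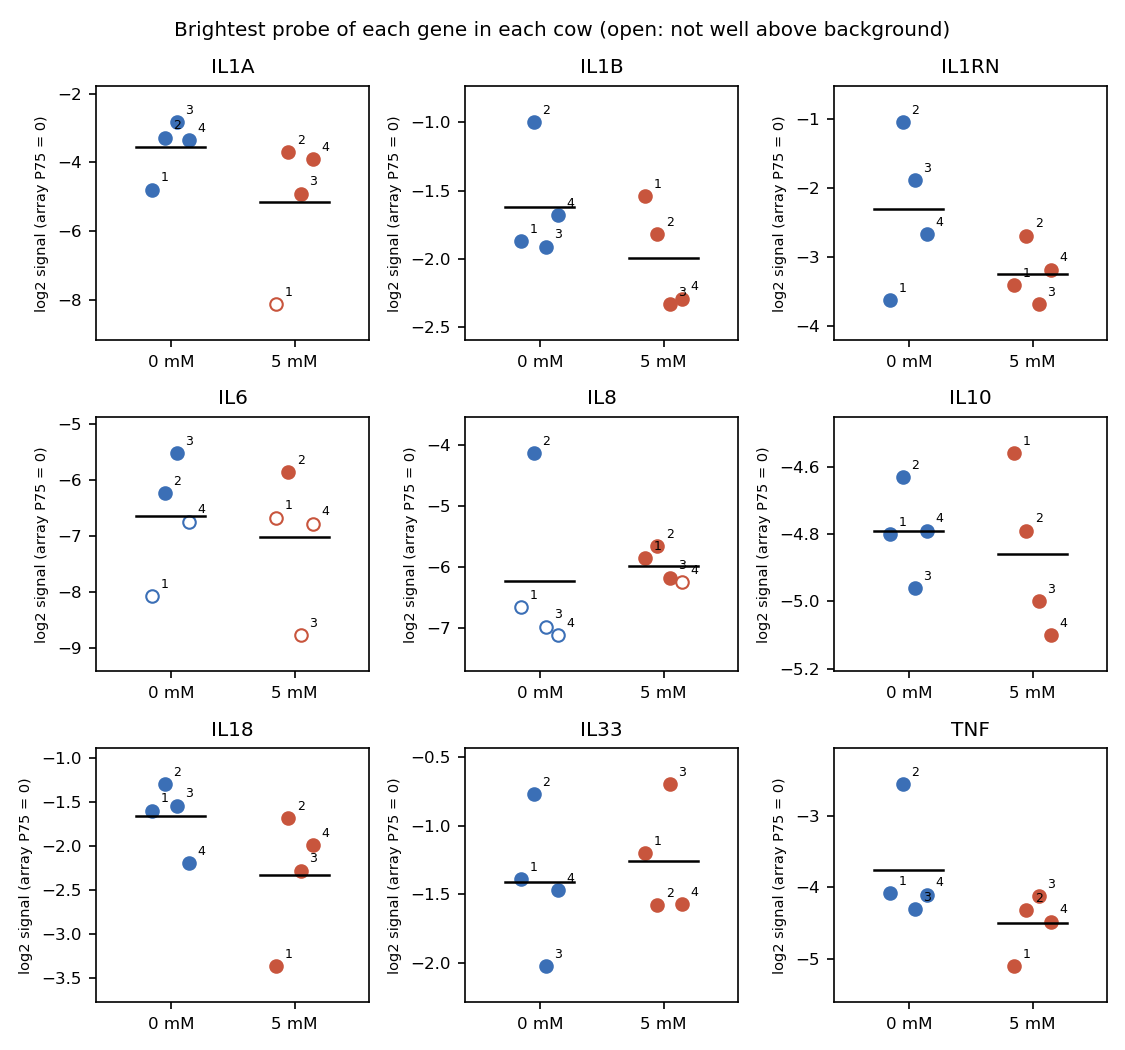
Log2 signal of the brightest probe of each of the 9 genes in each cow (vertical axis, relative to the 75th percentile of the array; scales differ between panels), with 0 mM cows in blue and 5 mM cows in red. Numbers are replicate numbers, bars are group means of 4 cows, and open circles are values not well above background; 0 mM replicate 2 is the highest cow for IL1B, IL1RN, IL8, IL18 and TNF.

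IL1A encodes IL-1 alpha, an alarmin held in epithelial and other cells. Its values were -4.79, -3.28, -2.83 and -3.35 in 0 mM replicates 1 to 4 and -8.13, -3.70, -4.91 and -3.90 in 5 mM replicates 1 to 4. The value of -8.13 was not well above background, and the other 3 cows given 5 mM lay inside or just below the range of the controls, so the groups overlapped. The means were -3.56 ± 0.85 and -5.16 ± 2.05, a difference of -1.60 ± 0.97 (SE, n = 4 and 4; limma, unadjusted p = 0.137), which was -0.61 without 5 mM replicate 1. That cow was also the one with few epithelial transcripts: its mean over 15 luminal and glandular epithelium markers was -3.44 relative to the average of the 8 arrays, against 0.37 to 0.56 in the rest of its group and 0.34 to 0.88 in the 0 mM group, and all 15 markers had lower mean values in the 5 mM group. IL1A and this marker mean had r = 0.92 over the 8 arrays and 0.46 over the 7 without that cow. The relation was not particular to epithelium: over the 8 arrays r was 0.90 with the T and NK cell mean, 0.89 with ciliated epithelium, 0.88 with all leukocytes, -0.91 with stroma and -0.87 with smooth muscle. The part of any of these cell types in the IL1A difference was not tested.

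IL1B encodes IL-1 beta, the secreted form made mainly by myeloid cells. Its brightest probe read -1.87, -1.00, -1.91 and -1.68 in 0 mM replicates 1 to 4 and -1.54, -1.82, -2.33 and -2.29 in 5 mM replicates 1 to 4. The highest value belonged to 0 mM replicate 2 and the 2 lowest to 5 mM replicates 3 and 4, while 5 mM replicate 1 was second highest. The difference was -0.38 ± 0.27 (limma, unadjusted p = 0.202, 95% interval -1.00 to 0.25), and -0.17 without 0 mM replicate 2. The 2 overlapping probes gave smaller differences, -0.00097 ± 0.16 and -0.12 ± 0.15, with 95% intervals of -0.36 to 0.36 and -0.47 to 0.24. Their correlation with the brightest probe over the 8 arrays was 0.64 and 0.31, and with each other 0.44, although they share 53 bases. Their values spanned only 0.61 and 0.56, at group means of -5.78 to -5.67, where the lowest signals marked well above background were -6.95 to -6.21. A spread this small near background limits what these correlations and differences show. With the mean over the 3 tested probes the IL1B difference was -0.16.

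IL1RN, the gene of the receptor antagonist, read -3.62, -1.05, -1.89 and -2.67 in the 0 mM cows and -3.41, -2.69, -3.68 and -3.18 in the 5 mM cows, in the order of their replicate numbers. The 4 cows given 5 mM lay close together at the low end of the wide spread of the controls, beside 0 mM replicate 1. The difference of the means, -2.31 ± 1.1 and -3.24 ± 0.42, was -0.93 ± 0.52 (limma, unadjusted p = 0.112, 95% interval -2.13 to 0.27). A second probe, well above background in all 8 cows, differed by -0.68 ± 0.44 and followed the first with r = 0.80. Without 0 mM replicate 1 the IL1RN groups did not overlap and the difference was -1.37 (limma, unadjusted p = 0.0131, adjusted p = 0.847), and without 0 mM replicate 2 it was -0.51. Across cows IL1RN tracked the mean of 10 general leukocyte markers (r = 0.85 over 8 arrays, 0.77 without 0 mM replicate 2). Over the 8 arrays its r was also 0.75 with macrophages and dendritic cells and -0.76 with smooth muscle. The leukocyte mean was -0.26 to 0.65 in the 0 mM group and -0.73 to -0.04 in the 5 mM group, and 9 of the 10 markers had lower mean values with 5 mM. Its part in the IL1RN difference was not tested.

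IL18 and IL33 belong to the same family but act on receptors of their own. IL18, whose product induces interferon gamma in lymphocytes and is stored in epithelial cells, read -1.60, -1.30, -1.54 and -2.19 in 0 mM replicates 1 to 4 and -3.36, -1.68, -2.28 and -1.99 in 5 mM replicates 1 to 4. The low value again belonged to 5 mM replicate 1, and 0 mM replicate 4 lay among the treated cows. The difference was -0.67 ± 0.37 (limma, unadjusted p = 0.109, 95% interval -1.53 to 0.19), and -0.33 without 5 mM replicate 1. With the epithelium marker mean IL18 had r = 0.90 over 8 arrays and 0.78 over the 7 without that cow. Over the 8 arrays r was also 0.93 with ciliated epithelium, 0.75 with all leukocytes and 0.74 with T and NK cells. With stroma it was -0.85 and with smooth muscle -0.73. The part of any of these cell types in the IL18 difference was not tested.

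IL33 had no such pattern. Its brightest probe read -1.39, -0.77, -2.02 and -1.47 in the 0 mM cows and -1.20, -1.58, -0.70 and -1.57 in the 5 mM cows. High and low cows were found in both groups, with 5 mM replicate 3 and 0 mM replicate 2 at the top. The difference was 0.15 ± 0.31 (limma, unadjusted p = 0.634, 95% interval -0.56 to 0.86), and -0.05 without 0 mM replicate 3. Its second probe gave 0.21 ± 0.29 and tracked the first with r = 0.94, so the ranking of cows by IL33 did not depend on the probe as it did for IL1B.

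TNF, the early cytokine of macrophages and lymphocytes, read -4.08, -2.56, -4.30 and -4.10 in the 0 mM cows and -5.10, -4.32, -4.12 and -4.48 in the 5 mM cows. Apart from 0 mM replicate 2, which was high, and 5 mM replicate 1, which was low, the 6 other values lay between -4.48 and -4.08. The difference of the means, -3.76 ± 0.80 and -4.50 ± 0.42, was -0.74 ± 0.41 (limma, unadjusted p = 0.107, 95% interval -1.69 to 0.20). Leaving out the high control cow gave -0.34, leaving out the low treated cow -0.55 and leaving out both -0.15. The second TNF probe was well above background in 1 cow, 0 mM replicate 2 again, and was not tested. Over the 8 arrays TNF had r = 0.77 with the T and NK cell marker mean, which was -0.24 to 0.63 in the 0 mM group and -1.04 to 0.03 in the 5 mM group, with 11 of 15 markers lower. Without the 2 arrays farthest from the median of that marker mean r was 0.11, so the relation rested on them. Over the 8 arrays r was also 0.77 with all leukocytes, 0.70 with B and plasma cells, 0.63 with epithelium and -0.68 with stroma.

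IL6, which signals through IL6R and IL6ST, was near the limit of detection in this tissue. Its brightest probe read -8.08, -6.23, -5.52 and -6.74 in the 0 mM cows and -6.67, -5.86, -8.77 and -6.78 in the 5 mM cows, and was well above background in 2 and 1 of them. The second IL6 probe, at chr4:32760426-32760485, was well above background in 3 cows given 0 mM and in 0 given 5 mM, with readings of -7.87, -6.15, -6.34 and -6.78 against -7.09, -7.80, -7.85 and -7.19. These readings overlapped, and the detection limit of the 5 mM arrays lay above the mean of the 0 mM group, so no fold is given. No IL6 probe was tested. The LOC517016 probe that the files label IL6 had r = -0.15 and -0.20 with the 2 IL6 probes and would have given a difference of 0.45, of the opposite sign.

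IL8, the neutrophil chemokine, read -6.65, -4.14, -6.97 and -7.11 in the 0 mM cows and -5.85, -5.66, -6.17 and -6.25 in the 5 mM cows. It was well above background in 0 mM replicate 2 and in 5 mM replicates 1, 2 and 3, and the other 3 controls were the 3 lowest of the 8 cows. The difference was 0.24 ± 0.63 (limma, unadjusted p = 0.717, 95% interval -1.21 to 1.68). Without 0 mM replicate 2 the IL8 probe was well above background in 0 of 3 controls and 3 of 4 treated cows, too few to be tested. No fold is given for this comparison, because an undetected reading can lie above the lowest signal marked on its array. The IL8 reading of -6.25 in 5 mM replicate 4 was not well above background, while the lowest signal so marked there was -6.48. With normexp background correction of all 8 arrays the difference was 0.05. Both other IL8 probes also had their highest value in 0 mM replicate 2 and followed the first with r = 0.89 and 0.92. They were above background in 3 cows and 1 cow, so most of their readings were not detected, and r without 0 mM replicate 2 was not computed for them. Neither probe was tested, and their group means differed by 0.30 and -0.34, of opposite sign.

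IL10, the restraining cytokine, varied least. Its brightest probe read -4.80, -4.63, -4.96 and -4.79 in the 0 mM cows and -4.56, -4.79, -5.00 and -5.10 in the 5 mM cows, so that the 8 values spanned 0.54. The 0 mM cows lay inside the range of the 5 mM cows, and the difference was -0.07 ± 0.16 (limma, unadjusted p = 0.673, 95% interval -0.44 to 0.30). IL10 and the brightest IL1B probe ranked the cows alike, with r = 0.86 over 8 arrays and 0.94 without the 2 farthest arrays.

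**Figure D2:**
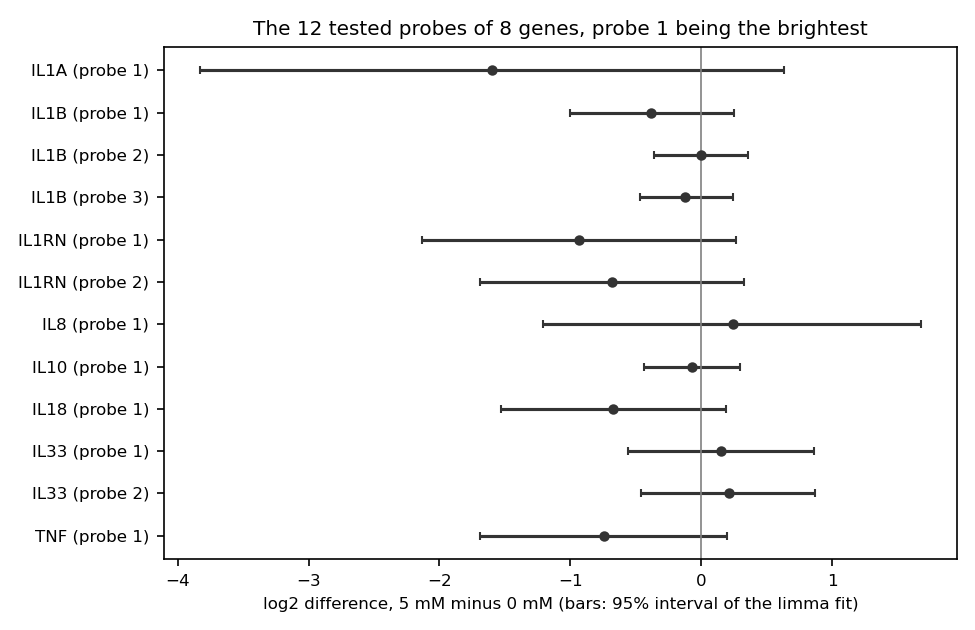
Log2 difference between cows given 5 mM and 0 mM (horizontal axis) for the 12 tested probes of 8 genes, with the 95% interval of the limma fit on 4 and 4 arrays. Each interval crosses 0; the IL1A interval is the widest, from -3.83 to 0.63, and the IL1B and IL10 probes with small spread have the narrowest.

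A few cows stood apart from the rest of their group. 0 mM replicate 2 had the highest value of the 8 cows for 5 of the 9 genes, and over the 9 genes its median was 0.81 above the average of the 8 arrays. The medians of the other 7 cows lay between -0.29 and 0.14. 5 mM replicate 1 had the lowest value for IL1A, IL18 and TNF but the highest for IL10. 5 mM replicate 3 was lowest for IL1B, IL1RN and IL6 and highest for IL33. In 0 mM replicate 2 the marker means were 0.65 for all leukocytes, 0.48 for neutrophils, 1.23 for B and plasma cells, 0.88 for luminal and glandular epithelium and 0.63 for T and NK cells, each the highest of the 8 arrays, and S100A8, a neutrophil gene, read -1.51 there and -4.64 to -2.38 in the other 7 cows. IL8 and the neutrophil marker mean had r = 0.58 over 8 arrays and 0.20 without that cow. Neutrophil receptors CXCR1 and CXCR2, 2 of the defining markers of that list, were above background on 0 arrays. Smooth muscle markers were at 1.32 in 0 mM replicate 1, 2.65 in 5 mM replicate 1 and 1.81 in 5 mM replicate 3 and at -1.68 to -0.90 in the other 5, and the part of this in the cytokine values was not tested. Leaving out both 0 mM replicate 2 and 5 mM replicate 1, the differences were -0.52 for IL1A, -0.32 for IL1B, -0.45 for IL1RN, -0.12 for IL10, -0.21 for IL18 and 0.34 for IL33, and IL8 was above background in 0 of 3 controls and 2 of 3 treated cows.

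**Figure D3:**
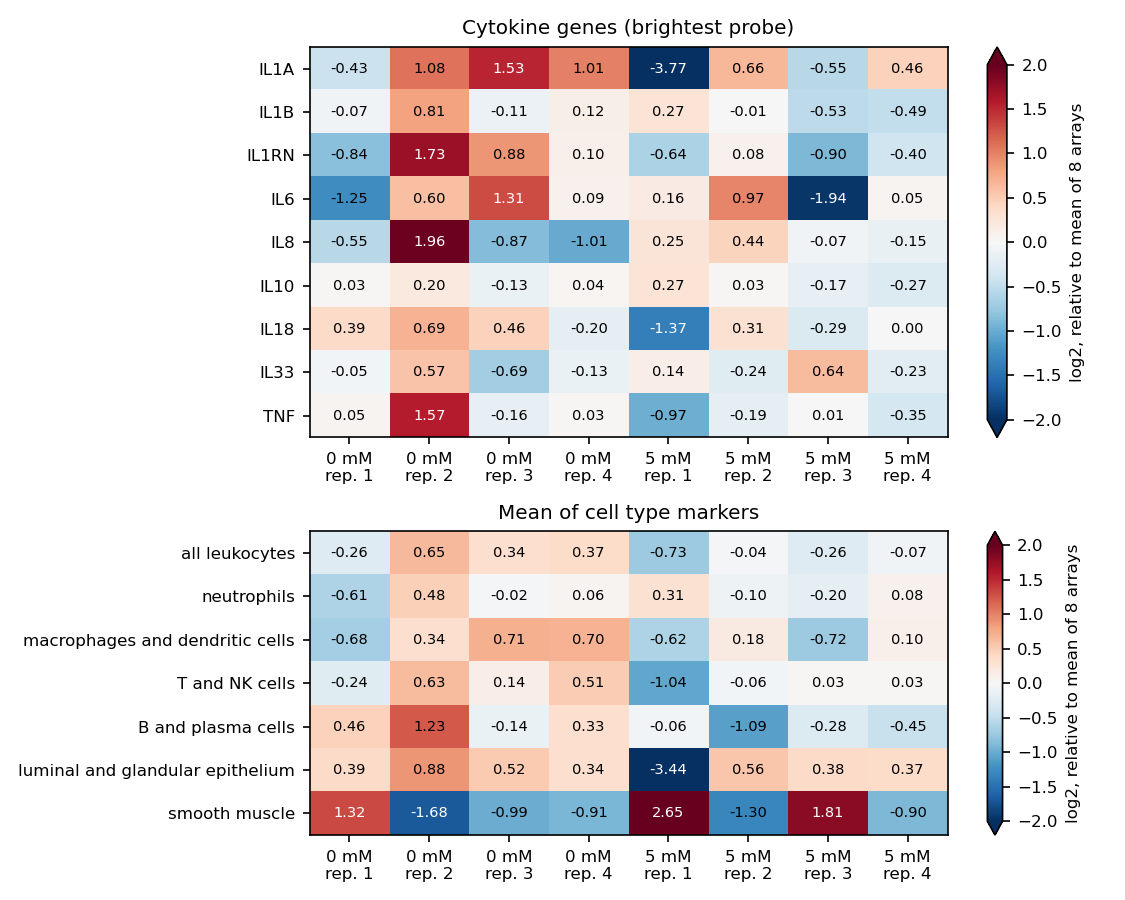
Values of the brightest probe of the 9 genes (top) and means of marker genes of 7 cell types (bottom) in each cow, in log2 relative to the average of the 8 arrays; colours are capped at -2 and 2 and the number is printed in each cell. 0 mM replicate 2 is high for IL1RN (1.73), IL8 (1.96) and TNF (1.57), and 5 mM replicate 1 combines low IL1A (-3.77) and IL18 (-1.37) with low epithelium markers (-3.44).

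The arrays lay on 3 slides, each with cows of both groups. With slide as a block the IL1A difference was -1.53 (limma, unadjusted p = 0.0255, adjusted p = 0.841), where 3.30% of all tested probes had an unadjusted p under 0.05. The IL1RN, IL18, TNF and IL8 differences were then -0.66, -0.56, -0.67 and 0.51. Within slides 1, 2 and 3 the differences were -3.33, -0.65 and -1.06 for IL1A and -1.02, -0.89 and -0.20 for TNF, in the same direction on each. IL1RN gave 0.21, -1.22 and -0.75, IL1B 0.34, -0.36 and -0.63, IL18 -1.76, -0.26 and 0.05, and IL8 0.80, -0.11 and 0.91, so that each of these changed sign on 1 slide. The IL1A value on slide 1 rests on 5 mM replicate 1, whose reading was not well above background, so it is not a measured difference. The IL8 values on slides 1 and 3 set treated cows against controls not well above background, so they are not measured differences either. No call is made within a slide, where a group can be a single cow.

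The receptors that read these cytokines were mostly well above background. In the list of IL-1 family genes and receptors, which includes 5 of the genes above, 10 genes were tested, 8 had lower and 2 higher mean values with 5 mM, and the median was -0.26, ranging from -0.42 when 0 mM replicate 1 was left out to -0.11 when 0 mM replicate 2 was. IL1RAP, the partner chain of IL1R1, was the 1 gene of this list at an unadjusted p under 0.05, where the share over all tested probes was 1.91%. It read -2.95, -2.34, -2.75 and -2.85 in the 0 mM cows and -4.27, -3.06, -4.35 and -2.91 in the 5 mM cows. Its values were lowest in 5 mM replicates 1 and 3 and the groups overlapped by 1 cow, with a difference of -0.93 ± 0.37 (limma, unadjusted p = 0.0369, adjusted p = 0.913) and -0.48 at its second probe. IL1R1 differed by -0.14 ± 0.29, with -0.68 at its second probe. The IL-33 receptor IL1RL1 differed by -0.07 ± 0.28 and IL18BP, which neutralises IL-18, by 0.0019 ± 0.21. The decoy receptor IL1R2 was above background on 1 array, and the array had no probe named IL18R1 here.

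Among receptors for IL-6, IL-8, IL-10 and TNF, 7 of 9 tested genes had lower values (median -0.16, -0.27 without 0 mM replicate 1 and -0.07 without 5 mM replicate 1). ACKR1, a scavenging receptor of endothelium and red cells that binds IL-8 and other chemokines, read -6.02, -5.28, -5.58 and -5.45 in the 0 mM cows and -6.30, -6.34, -6.44 and -6.22 in the 5 mM cows. The groups did not overlap, which held for 1.54% of all tested probes. The ACKR1 difference was -0.74 ± 0.18 (limma, unadjusted p = 0.0032, adjusted p = 0.913), close to background. It was the 1 gene of the 9 at an unadjusted p under 0.05, against 1.91% of all tested probes. IL6R read 2.15 to 2.35 in 5 mM replicates 2 to 4 and -0.59 in 5 mM replicate 1, against 2.32 to 2.74 in the 0 mM group, a difference of -0.96 ± 0.64. LIFR differed by 0.27 ± 0.17 (-0.05 to 0.41 at its other probes), IL11RA by 0.30 ± 0.29, IL6ST by -0.27 ± 0.29, TNFRSF1A by -0.08 ± 0.22 and TNFRSF1B by -0.19 ± 0.36, none at an unadjusted p under 0.05. IL10RA was above background on 1 array.

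Among genes that process or relay the signals, some had higher and some lower values. Of 11 inflammasome and processing genes 8 were lower and 3 higher (median -0.08), with PYCARD, the adaptor of the inflammasome, at -0.31 ± 0.18, GSDMD, the pore-forming gasdermin, at -0.23 ± 0.15, RHBDF2, a partner of the TNF-releasing protease, at -0.50 ± 0.40, GSDME at 0.43 ± 0.35 and CASP1 at -0.16 ± 0.28. The sensor gene NLRP3 was above background on 1 array. Of 31 genes signalling to NF-kB 17 were lower and 14 higher (median -0.01), including TAB2 at 0.36 ± 0.19, CYLD at -0.67 ± 0.38, REL at -1.01 ± 0.69, TRAF5 at 0.84 ± 0.61 and NFKBIA, the inhibitor that NF-kB induces, at -0.57 ± 0.45. In 5 mM replicate 1 REL read -8.23, not well above background, against -6.12 to -4.29 in the other cows. RHBDF2 read -2.21 in that cow and -0.79 to -0.14 in the others. Second probes gave -0.07 for CYLD and 0.06 for CASP1. Of 14 JAK-STAT genes 6 were lower and 8 higher (median 0.02). PTPN6 differed by -0.37 ± 0.26, CISH by -0.67 ± 0.61, PIM1 by 0.43 ± 0.59 and JAK1 by 0.14 ± 0.12. In 5 mM replicate 1 CISH read -3.25 and PTPN6 -0.51, against -0.93 to -0.22 and 0.37 to 0.78 in the other cows. The JAK1 groups did not overlap, which held for 1.54% of all tested probes, and its other probes gave -0.03 to 0.12. None of these 3 lists had a gene at an unadjusted p under 0.05, where the share over all tested probes was 1.91%. The feedback genes TNFAIP3 and SOCS3 were above background on 0 arrays.

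Inflammatory genes downstream were lower in 16 and higher in 9 of 25 tested (median -0.25), a list that includes IL8 itself. Leaving out 0 mM replicate 1 gave a median of -0.56, leaving out 0 mM replicate 2 gave -0.06, and leaving out 5 mM replicate 3 gave -0.04. CCL4, a chemokine for monocytes and T cells, read -3.50, -1.62, -3.47 and -3.45 in the 0 mM cows and -5.57, -3.33, -4.50 and -4.24 in the 5 mM cows. The highest cow was again 0 mM replicate 2 and the lowest 5 mM replicate 1, and the CCL4 difference was -1.40 ± 0.58 (limma, unadjusted p = 0.0415, adjusted p = 0.913). PTGS2, the inducible cyclooxygenase of prostaglandin synthesis, differed by -0.75 ± 0.32 (limma, unadjusted p = 0.0494, adjusted p = 0.913). CCL4 and PTGS2 were the 2 genes of the 25 at an unadjusted p under 0.05, against 1.91% of all tested probes. CP, encoding ceruloplasmin, differed by -0.66 ± 0.36 (-0.64 to 0.38 at its other probes) and the neutrophil chemokine CXCL3 by -0.91 ± 0.50. Of 11 other tested interleukins and cytokines 8 were lower and 3 higher (median -0.34, and -0.62 without 0 mM replicate 1), led by the B cell factor TNFSF13B at -0.79 ± 0.35, IL12A at -1.04 ± 0.53, TGFB1 at -0.29 ± 0.17 and CSF1 at -0.29 ± 0.24. A second CSF1 probe gave 0.26, of the opposite sign. A further 22 interleukins and cytokines had probes but too little signal to be tested, and 18 of them, among them IL4, IL13 and IL17A, were above background on 0 arrays. IFNG, which IL-18 induces, was above background in 1 cow given 0 mM.

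**Figure D4:**
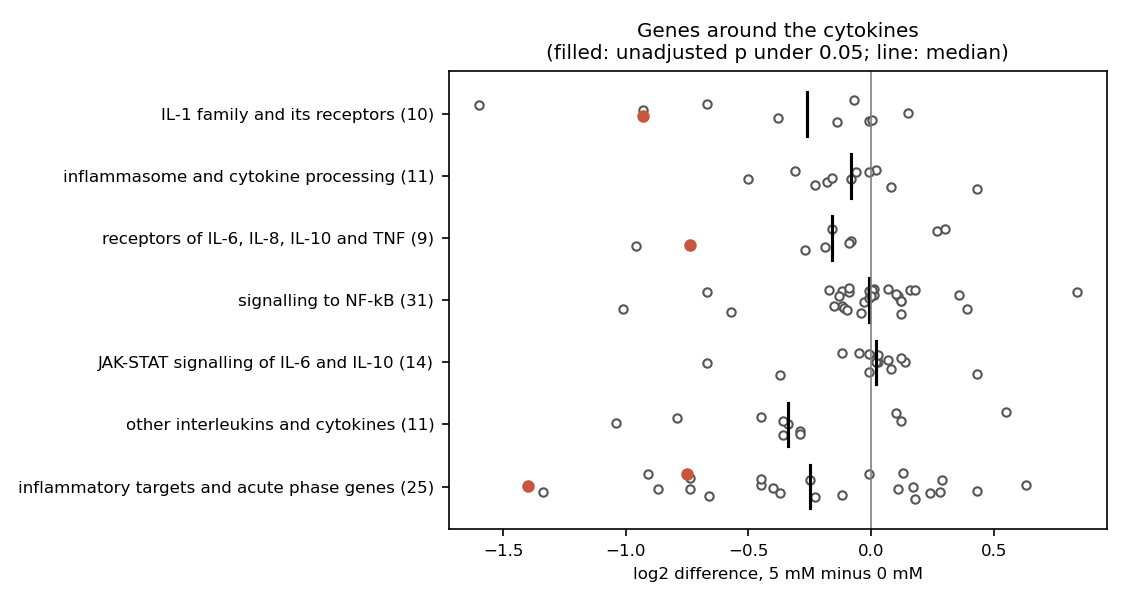
Log2 difference between cows given 5 mM and 0 mM (horizontal axis) of each tested gene in 7 lists of related genes, with the number tested in brackets, the list median as a black line and genes at an unadjusted p under 0.05 filled. The 4 filled genes (IL1RAP, ACKR1, CCL4 and PTGS2) lie to the left of 0, the NF-kB and JAK-STAT medians lie at -0.01 and 0.02, and none of the genes passed adjustment. Of all tested probes 1.91% had an unadjusted p under 0.05.

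Genes whose values followed a cytokine most closely over the 8 arrays were found among 12508 genes by Pearson's r, 1 probe a gene, as a description in which the points share the same 8 cows. TNF was followed by ISG20, THEMIS and CST7 (r = 0.99 each), of which THEMIS and CST7 are known from T cells and cytotoxic cells. IL1A was followed by PGS1, LETM2 and CP (r = 0.99 each, and 0.96 to 0.97 without 5 mM replicate 1). IL18 was followed by TMED5, TJP3 and TMBIM7 (r = 0.98 each), TJP3 being a tight junction gene of epithelium. For IL1B the nearest were TIA1, GPSM3 and FOSB (0.96, 0.96 and 0.95). For IL1RN they were ETS1, CTSC and LRMP (0.96, 0.96 and 0.95), for IL10 PIP5K1C, FGR and INTS12 (0.97, 0.96 and 0.95), for IL33 ANKRD29, GZMA and PADI1 (0.96, 0.92 and 0.91), and for IL8 ZNF326, KDM5B and PGAM5 (0.93, 0.93 and 0.92). Without 0 mM replicate 2 the IL8 values were 0.85, 0.86 and 0.75.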

How the data were processed

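The deposited files are one-colour scanner outputs of Agilent Feature Extraction. The file headers name version 11.5.1.1, while the submitters' processing notes name 10.5.1.1. Their processed intensity is background-subtracted and detrended, and is not scaled between arrays, per the file headers. The above-background mark used here is also the deposited one. The authors' deposited value table holds log2 values that matched these intensities after a shift to the 75th percentile and centring of each probe on its median (r of at least 0.999507 across probes), and served only as an alternative.

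Here log2 intensities were set against each array's 75th percentile, with control spots and outlier spots left out. Probes well above background on at least 4 of 8 arrays were tested (31108, 461 values missing) with limma 3.58.1 in R 4.3.3, lmFit and eBayes, Benjamini-Hochberg adjustment and a threshold of 0.05, and the test was checked on simulated data. Where a gene had several probes, the brightest was taken. Current names came from RefSeq (ARS-UCD2.0 genes): 22205 of 43653 probes through an accession, 9847 by symbol, 1171 by gene ID and 372 by synonym, while 503 kept the name given and 9555 had none. The genes, lists and the rule for named genes (the 3 genes most like each cytokine, up to 4 genes of lowest p per list, and chosen receptors and regulators) were chosen with earlier results of these data known. Alternatives were quantile normalization, a median shift, normexp (offset 50), other filters, trend and robust eBayes, array weights, the mean over probes, the deposited table, slide and replicate blocks, single slides and leaving out each cow. The number of arrays limits the precision. The labels do not pair cows of the same replicate number, and no pairing entered the main fit. Deviations of same-numbered cows had r of 0.40, 0.36, -0.30 and 0.31. For replicates 1, 2 and 4 the same-numbered cow was the closest of the other group. These pairs each also shared a slide, so for them number and slide cannot be told apart. For 0 mM replicate 3 the closest was 5 mM replicate 2, on the same slide 2, while 5 mM replicate 3 lay on slide 3. The cause of these likenesses was not tested.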

Additional observations from a re-analysis of the deposited data

Results flagged for a closer look

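Among the 26 sets of 4 cows' values, from the 12 tested probes and the brightest IL6 probe in each group, 2 held a value far from the other 3, both in 0 mM replicate 2, and chance alone sets apart about 1 in 20 such sets at the limit used. IL8 read -4.14 in that cow and -7.11 to -6.65 in the other controls, a gap of 0.843 of the range. TNF read -2.56 there and -4.30 to -4.08 in the other controls, a gap of 0.876 of the range. The cause was not tested.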

How the results depend on the processing

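No cytokine passed adjustment in any of the 158 tested fits under the alternatives, where the smallest adjusted p was 0.667, and 170 of 182 alternative values of the 8 tested genes kept their sign. The count of genes at an unadjusted p under 0.05, 0 as reported, was 1 with slide as a block and 1 with the replicate block (IL1A in both, at -1.53 and -1.60), where the share of all probes was 3.30% and 3.93% against 1.91%. It was 0 to 1 leaving out single cows (share of all probes 1.21% to 4.91%): IL1RN at -1.37 without 0 mM replicate 1 (2.74%), IL18 at -0.89 without 5 mM replicate 2 (4.91%) and IL8 without 0 mM replicate 2 (1.29%). Leaving out both cows that stand apart, chosen after seeing the data, it was 1 (IL8; 1.71% of all probes), as was the count of genes whose groups did not overlap. Both IL8 calls set readings against 3 controls that were not well above background, and the probe would then miss the filter, so its fitted value of 0.93 or 0.88 is not a measured difference. That second count was 0 to 2 leaving out single cows: 2 without 0 mM replicate 1 (IL1A, IL1RN) and 1 without 0 mM replicate 2 (IL8), 0 mM replicate 3 (TNF), 0 mM replicate 4 (IL18) or 5 mM replicate 3 (TNF). The share of all probes without overlap is given for all 8 arrays only (1.54%). Smaller groups separate more easily, so nothing is read from the counts with cows left out. Differences that changed sign were IL8 (-0.06 to 0.93 leaving out single cows), IL10 (-0.17 to 0.0072 likewise, and 0.05 with normexp) and IL33 (-0.05 to 0.37). Within slide 1 the values were -3.33 for IL1A, which rests on a reading not well above background, 0.34 for IL1B, 0.21 for IL1RN, 0.24 for IL10 and -1.76 for IL18. IL18 was 0.05 within slide 3. List medians that moved within slide 1 were 0.24 for inflammasome genes, 0.10 for NF-kB genes, 0.42 for JAK-STAT genes and 0.20 for other cytokines. The JAK-STAT median was -0.16 within slide 2 and -0.13 within slide 3, and -0.08 to 0.10 leaving out single cows. The NF-kB median was -0.10 to 0.02 leaving out single cows, and that of other cytokines was 0.12 without a filter on dim probes, which adds genes near background. The replicate block changed no other call. With normexp the IL1A, TNF and IL1RN differences were -0.37, -0.38 and -0.63; the cause was not tested. Signal over background limits IL6 and IL8, and also IL1A, whose reading of -8.13 in 5 mM replicate 1 was not well above background. The 4 cows a group limit all 9 genes.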
